A study of Mus musculus with 14 samples.

Results

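The 10 genes described here are best known from cartilage matrix, and they were followed in aortic valve leaflets of mice: Acan, Comp, Chad, Cnmd, Matn1, Matn3, Cytl1, Hapln1, Snorc and Prg4. They were chosen by name from the 56941 genes of the deposited count table, and all 10 were found in it. Bulk RNA-seq had been made from the valves of 14 mice, 1 library per mouse. All mice were wild type C57BL/6J males, 8 weeks old at the start, and all of them, the controls included, ate the Breslow Western diet. The 4 Ctrl mice received no further treatment, the 2 LY mice received LY272015 at 3 mg/kg, the 4 AngII mice received angiotensin II at 1000 ng/kg/min from implanted pumps for 28 days, and the 4 AngII+LY mice received both. LY272015 blocks the serotonin receptor HTR2B. The design text has the pumps taken out and the mice kept for 48 h more, while the methods of the study describe this for a subset, so the time of sampling after AngII was not resolved. The text also gives LY272015 dosing both as every other day and as more widely spaced, and some labels of dosed mice carry another compound number, so groups were taken from the sample titles.

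Cartilage matrix is built on aggrecan, a proteoglycan that hangs from strands of hyaluronan and holds water. Link protein locks aggrecan to the strand, and small adaptor proteins join these aggregates to collagen fibrils. Heart valves hold a comparable proteoglycan-rich middle layer that lets the leaflet bend, and valve and cartilage cells share several regulators, SOX9 among them. By role, Acan encodes aggrecan and Hapln1 encodes link protein. Comp (cartilage oligomeric matrix protein, of the thrombospondin family), Chad (chondroadherin), Matn1 and Matn3 (matrilins) encode adaptors of the fibril network. Cnmd encodes chondromodulin, an inhibitor of blood vessel growth in cartilage and valves, Cytl1 a small secreted protein known from cartilage precursors, Snorc a membrane proteoglycan of cartilage cells, and Prg4 lubricin, the surface lubricant of joints.

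The results turned mostly on 4 of these genes, which formed the 2 pairs with the highest correlations between valves: Comp with Chad, and Hapln1 with Prg4. The 250 bases upstream of the start of each canonical transcript were read from the GRCm39 genome with GENCODE vM39 starts and are shown to let the members of a pair be compared. Capitals mark CG dinucleotides. The windows lie at chr8:70825942-70826191 on the plus strand (Comp), chr11:94455446-94455695 plus (Chad), chr13:89687665-89687914 plus (Hapln1) and chr1:150342010-150342259 minus (Prg4), each printed 5′ to 3′.
Comp: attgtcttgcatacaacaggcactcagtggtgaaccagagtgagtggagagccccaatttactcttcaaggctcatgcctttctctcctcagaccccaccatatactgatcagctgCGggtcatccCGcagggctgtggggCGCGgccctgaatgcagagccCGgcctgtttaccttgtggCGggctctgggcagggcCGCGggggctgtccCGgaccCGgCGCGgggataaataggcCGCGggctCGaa
Chad: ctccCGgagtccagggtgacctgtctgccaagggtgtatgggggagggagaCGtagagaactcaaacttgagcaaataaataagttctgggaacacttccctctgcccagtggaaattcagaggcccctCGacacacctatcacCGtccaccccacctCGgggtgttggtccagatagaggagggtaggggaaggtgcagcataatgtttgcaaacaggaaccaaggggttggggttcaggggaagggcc
Hapln1: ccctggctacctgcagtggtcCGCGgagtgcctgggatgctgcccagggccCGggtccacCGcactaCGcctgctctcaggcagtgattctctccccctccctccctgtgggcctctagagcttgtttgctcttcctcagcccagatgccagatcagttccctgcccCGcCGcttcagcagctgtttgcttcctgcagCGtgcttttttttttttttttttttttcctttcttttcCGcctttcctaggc
Prg4: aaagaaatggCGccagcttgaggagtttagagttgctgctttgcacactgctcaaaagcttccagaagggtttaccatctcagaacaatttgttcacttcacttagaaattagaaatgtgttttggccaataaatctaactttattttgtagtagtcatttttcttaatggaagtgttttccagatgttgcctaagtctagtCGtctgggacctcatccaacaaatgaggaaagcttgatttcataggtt
The Comp window held 15 CG and 62.0% G+C, the Chad window 5 CG and 56.0%. Hapln1 had 9 CG and 58.0%, whereas Prg4 had 2 CG and 38.0%, the lowest G+C content among the windows of the 10 genes. Over 21770 promoter windows of the same length the median was 8 CG and 53.2%, and the members of each pair differed in both. The words ACAAAG and ACAATG, core letters of SOX binding sites, and TATAAA, the TATA box, were searched on both strands. None of the 10 windows held any of them, against 15.9%, 9.41% and 11.9% of all promoter windows.

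As a frame for the values below, library totals ranged from 20990655 (AngII 4) to 73128220 counts (AngII 2). The mitochondrial share of counts ranged between 4.00 and 7.52% in the Ctrl valves, 8.62 and 9.76% in the LY valves, 9.83 and 25.5% with AngII, and 10.1 and 20.2% with AngII+LY. The highest shares were those of AngII 4 with 25.5%, AngII 3 with 24.7% and AngII+LY 1 with 20.2%. All 10 listed markers of valve interstitial cells were detected in Ctrl, from 29.2 for Pdgfra to 1797 for Dcn and 2365 for Vim on the TPM scale defined below. Single markers of other cells stood higher still, such as the cardiomyocyte gene Tnni3 at 5150 and the globin gene Hbb-bs at 23113. Others lay far below Vim, such as the cardiomyocyte gene Ryr2 at 7.54 and the endothelial gene Pecam1 at 317. The summed share of 12 cardiomyocyte genes was 0.872 to 1.68% of counts in AngII and 2.10 to 4.75% in AngII+LY, with no overlap, while Ctrl ranged from 0.935 to 3.82%. That of the 10 valve interstitial genes was 1.08 to 2.20% in Ctrl and 1.30 to 1.99% in AngII, and lower without overlap in AngII+LY, at 0.582 to 1.01%. Over all valves, erythrocyte genes took 0.963 to 4.28% of counts, endothelial genes 0.118 to 0.305%, macrophage genes 0.0431 to 0.201%, skeletal muscle genes 0.011 to 0.265% and melanocyte genes 0.000608 to 0.0453%. In bulk tissue, fewer cells of a type and less RNA per cell cannot be told apart.

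Levels between genes were compared per transcript length, in TPM, the share of a gene among all transcripts after division by exon length. Cytl1 stood far above the rest, with 2298 ± 351 TPM in Ctrl (SD, n = 4), which placed it at rank 35 among the genes tested. The lowest Ctrl value of Cytl1 lay above the highest of Comp. Comp followed with 275 ± 86.3 TPM, Prg4 with 255 ± 156, Chad with 118 ± 47.3 and Hapln1 with 94.3 ± 53.3. The ranges of neighbours in this row of 4 overlapped, so the order of neighbours was not set beyond the spread between mice. Its ends were apart, since the lowest Ctrl value of Comp (163) lay above the highest of Hapln1 (154). A wide gap separated Hapln1 from Cnmd, at 3.86 ± 1.47 TPM, and Acan, at 2.31 ± 4.04 TPM. Thus the transcript of link protein was abundant in valves in which that of aggrecan, its partner in cartilage, was low.

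**Figure D1:**
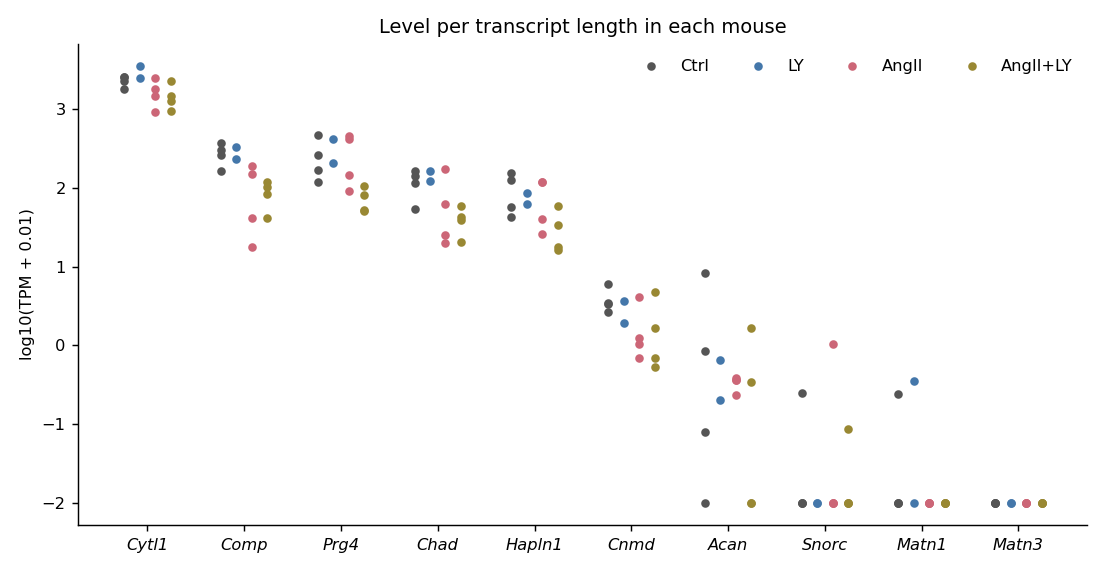
Level of each gene in each of the 14 valves as log10(TPM + 0.01), with 1 point per mouse, coloured by group and ordered by the Ctrl mean. Cytl1 lies above all others, 4 genes form a middle tier, Cnmd and Acan lie lower, and most or all valves are at 0 (the bottom of the axis) for Snorc, Matn1 and Matn3.

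The remaining 3 genes could not be compared. Matn3 was at 0 in all 14 libraries, which allows up to 0.00398 CPM (3 counts over all libraries together, scaled to their total). Matn1 had 31 counts, 10 in Ctrl 1 and 21 in LY 1. Snorc had 25 counts, of which 20 were in AngII 2, 4 in Ctrl 2 and 1 in AngII+LY 2. These genes had a mean count under 10 and were left out of the tests. The other 7 members entered a fit of 19145 genes, and the counts below speak of these 7 alone. Values given per mouse are normalized counts, that is, counts scaled to a common library size, in the order of mouse number.

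AngII against Ctrl asks what angiotensin II did on the shared diet. Comp was the member set farthest apart. It stood at 14086, 13873, 6889 and 11192 in Ctrl, and at 7277, 8140, 3272 and 1426 in AngII. The lowest Ctrl valve overlapped the upper AngII valves, while the remaining 3 Ctrl valves lay above all AngII valves. The fitted level was 2.29-fold lower in AngII, a log2 fold change of -1.19 (SE 0.44), with an adjusted p = 0.122 in edgeR and an exact permutation p of 0.0857. DESeq2, the study's own method, gave -1.19 with an adjusted p = 0.033. The 2 lowest AngII valves, AngII 3 and AngII 4, were those with the highest mitochondrial share. They were also the lowest of their group for Chad, Hapln1 and Prg4, while Cytl1 was highest in AngII 3. The part of the mitochondrial share in these levels was not tested. Without AngII 3 the log2 fold change of Comp was -1.03 and its unadjusted p no longer under 0.05. Without AngII 4 it was -0.89, and a correction for gene GC content brought it to -0.71.

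Chad, which like Comp encodes an adaptor of the collagen network, showed no separation. Ctrl valves held 3894, 3983, 1415 and 3071, and AngII valves 1903, 4576, 977 and 1244. AngII 2, with the highest value of all Ctrl and AngII valves, set Chad apart from its group, and the log2 fold change of -0.50 (SE 0.44, adjusted p = 0.5) became -1.17 without that mouse. Under the GC correction it was 0.025.

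Prg4 pointed the other way. Ctrl valves held 14758, 7829, 10553 and 29421, and AngII valves 29860, 28433, 16541 and 10625, so both groups spanned nearly the same range. Exons of Prg4 overlap those of Tpr on the opposite strand (73473 counts over all libraries), and since the strand setting of the counting is not given in the sources used here, reads of that stretch cannot be told apart. The log2 fold change was 0.45 (SE 0.45, adjusted p = 0.564). It was 0.95 without Ctrl 4, the valve that held most Prg4 among the controls.

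Hapln1 stood at 5198, 4638, 12528 and 15691 in Ctrl and at 13805, 12076, 7424 and 4996 in AngII. Ctrl fell into a low and a high pair of valves and AngII spread over the same levels, with a log2 fold change of 0.01 (SE 0.46, adjusted p = 0.992). Cytl1 was the steadiest member, with 40312, 33740, 39229 and 44289 in Ctrl and 36608, 42910, 47474 and 29932 in AngII. Its log2 fold change was -0.006 (SE 0.24, adjusted p = 0.991), and its sign turned in several other settings. In TPM, which are not adjusted for composition, Cytl1 averaged 1663 ± 646 in AngII.

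Acan, at low counts, was decided by 1 mouse. Ctrl valves held 828, 98.3, 7.56 and 0, against 45.5, 39.5, 45.7 and 79.4 in AngII. The log2 fold change of -2.16 (SE 1.73, adjusted p = 0.459) became 0.56 without Ctrl 1. The same valve had the highest summed share of 7 smooth muscle genes, 0.973% of its counts, where the other 13 valves ranged from 0.0333 to 0.353%. Its part in the level of Acan was not tested. Cnmd held 79.0, 170, 91.8 and 70.3 in Ctrl and 32, 18.4, 60.1 and 205 in AngII, in which the single highest valve, AngII 4, was also the shallowest library. Its log2 fold change was -0.41 (SE 0.82, adjusted p = 0.797).

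No member was called in this comparison (adjusted p below 0.05, with a log2 fold change beyond 0.5 either way), and neither was any of the 19145 genes (0.0%). At an unadjusted p under 0.05, 1 of 7 members passed, Comp, against 25.2% of all genes (13.4% higher and 11.7% lower). DESeq2 called 1 member, Comp, and 18.6% of the genes to which it gave an adjusted p. No member had groups that did not overlap, against 15.0% of genes. The median log2 fold change of the 7 members was -0.41, that of all genes -0.06. Markers of other cells also differed between these groups. The summed share of 8 adipocyte genes was 0.0874 to 0.122% in Ctrl and 0.0407 to 0.0722% in AngII, without overlap. Of the 8, 5 were lower at an unadjusted p under 0.05, as were 6 of 7 smooth muscle and 4 of 7 macrophage genes. The summed shares of the smooth muscle genes (0.0523 to 0.973% in Ctrl, 0.0333 to 0.0871% in AngII) overlapped. Those of the macrophage genes (0.0492 to 0.201% and 0.0431 to 0.0671%) also did, and Ctrl 1 was highest in both. Their part in the levels of the members was not tested.

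**Figure D2:**
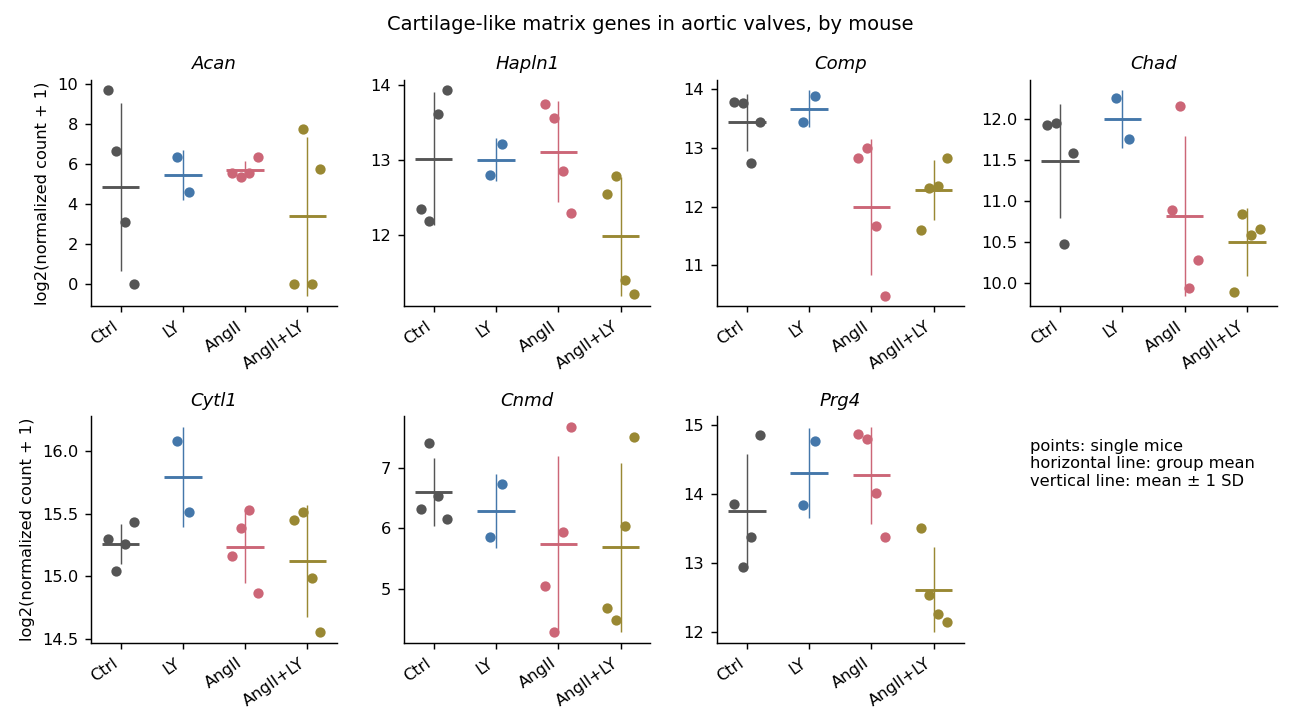
Normalized counts of the 7 tested genes as log2(count + 1) in each mouse, with the group mean and 1 SD, and a separate vertical scale in each panel. Comp is lower in AngII and AngII+LY than in most Ctrl valves, Prg4 and Hapln1 are lower in AngII+LY than in most AngII valves, and Cytl1 ranges from 24008 in AngII+LY 4 to 69300 in LY 1.

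AngII+LY against AngII asks what the HTR2B blocker changed under angiotensin II. The difference was largest for Prg4. Against 29860, 28433, 16541 and 10625 in AngII, the AngII+LY valves held 11612, 5918, 4871 and 4525. A single AngII+LY valve, the first, reached above the lowest AngII valve, AngII 4. The fitted level was 3.17-fold lower with the blocker, a log2 fold change of -1.67 (SE 0.46), with an adjusted p = 0.0747 in edgeR and an exact permutation p of 0.0571, where 4 against 4 allow 0.0286 at the lowest. DESeq2 gave -1.64 with an adjusted p = 0.0042. The log2 fold change lay between -2.07 and -1.46 without any 1 mouse. With the cardiomyocyte score of each valve as a covariate it was -1.10, with an adjusted p = 0.483, the highest of all settings. Since the summed share of cardiomyocyte genes did not overlap between AngII and AngII+LY, this covariate and the blocker cannot be told apart well.

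Hapln1 followed at a smaller distance. From 13805, 12076, 7424 and 4996 in AngII it stood at 5969, 7036, 2694 and 2353 in AngII+LY, and 2 of these valves lay above the lowest AngII valve. The log2 fold change was -1.09 (SE 0.46), a 2.12-fold lower level, with an adjusted p = 0.185 and an exact permutation p of 0.114. It lay between -1.36 and -0.56 in the other settings.

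Comp and Chad did not part from AngII in the same way. Comp held 3104, 5130, 5245 and 7296 in AngII+LY, all within the range of AngII, with a log2 fold change of 0.05 (SE 0.44, adjusted p = 0.968). It was lowest in AngII+LY 1, the valve with the highest mitochondrial share of its group. Chad was lowest in that valve too, while Prg4 was highest in it. Chad held 947, 1840, 1530 and 1620, with -0.55 (SE 0.44, adjusted p = 0.49), and 0.11 without AngII 2. Cytl1 held 44783, 46727, 32546 and 24008, with -0.08 (SE 0.24, adjusted p = 0.876). In the low genes, Acan was 0, 213, 0 and 52.7 and Cnmd 24.7, 21.3, 64.8 and 183, with log2 fold changes of 0.36 (SE 1.67) and -0.08 (SE 0.82) that changed sign when a single mouse was left out.

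No member and no gene (0.0%) was called by edgeR. At an unadjusted p under 0.05, 2 of 7 members passed, Prg4 and Hapln1, both lower, against 22.5% of all genes (10.1% higher and 12.4% lower). Hapln1 dropped out of this count without AngII 1, AngII 2, AngII+LY 3 or AngII+LY 4, which left 1 member, and with the cardiomyocyte score as a covariate 0 remained. DESeq2 called 1 member, Prg4, and 14.5% of genes. No member had groups that did not overlap, against 11.1% of genes. The median log2 fold change was -0.08 for the members and -0.02 for all genes. In the same comparison all 10 valve interstitial markers had negative log2 fold changes (median -0.69, 5 at an unadjusted p under 0.05). All 12 cardiomyocyte markers had positive ones (median 1.38, 8 at that level). Their part in the levels of Prg4, Hapln1 and the other members was not tested.

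AngII+LY was also set against Ctrl, whose mice serve the AngII comparison too. All 7 members had negative log2 fold changes here, with a median of -1.08 against -0.02 for all genes. Other lists were also low: 17 of 18 other cartilage matrix genes had negative values (median -0.79), as had all 10 valve interstitial markers (median -0.81, 7 at an unadjusted p under 0.05), whereas the median of 12 cardiomyocyte markers was 0.84. The part of the cell mix in the members' values was not tested. The values were -1.22 for Prg4 (SE 0.45, adjusted p = 0.348), -1.15 for Comp (SE 0.44, adjusted p = 0.36), -1.08 for Hapln1 (SE 0.46, adjusted p = 0.407) and -1.06 for Chad (SE 0.44, adjusted p = 0.398). These 4 of 7 members passed an unadjusted p under 0.05, against 11.0% of all genes, and none of the 7 or of all genes was called (0.0%). The count was 2 without Ctrl 4, AngII+LY 1 or AngII+LY 4, and 1 without AngII+LY 3 or with the cardiomyocyte score as a covariate. The groups overlapped for every member, while 8.16% of genes did not overlap. For Comp the overlap came down to Ctrl 3, at 6889, which lay below AngII+LY 4, at 7296, and the exact permutation p was 0.0571. Among the remaining members, Cytl1 was at -0.09 (SE 0.24), Cnmd at -0.48 (SE 0.81) and Acan at -1.81 (SE 1.70).

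**Figure D3:**
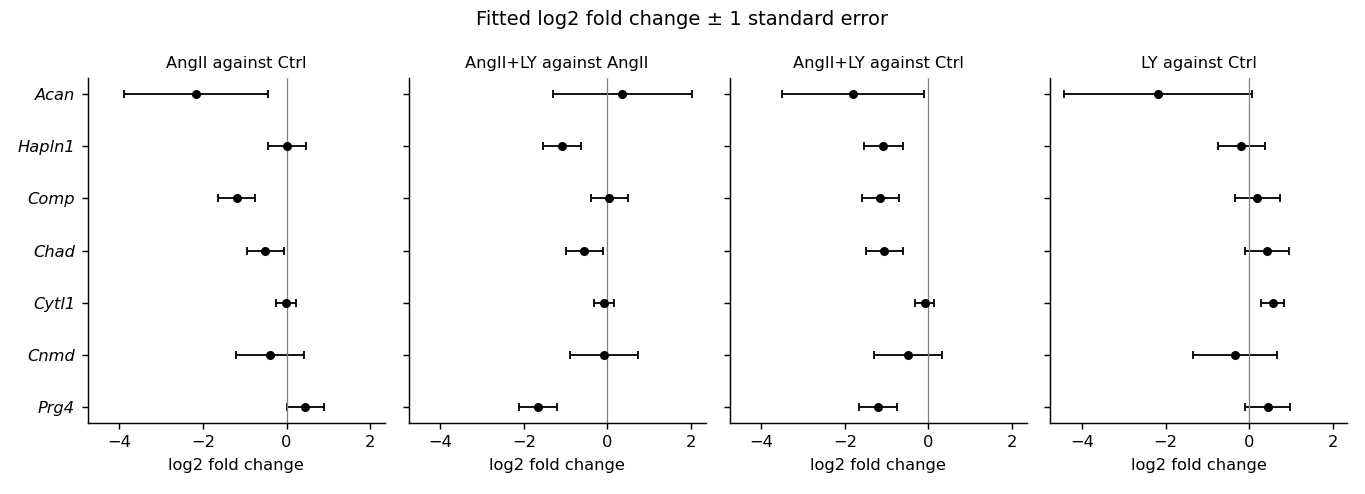
Fitted log2 fold change of the 7 tested genes in each comparison, with bars of 1 standard error. Prg4 and Hapln1 lie at -1.67 and -1.09 in AngII+LY against AngII, Comp at -1.19 in AngII against Ctrl, and 4 genes lie between -1.22 and -1.06 in AngII+LY against Ctrl.

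LY272015 alone could be judged from 2 mice only. Cytl1 held 69300 and 46819, both above every Ctrl valve, with a log2 fold change of 0.56 (SE 0.28, adjusted p = 1.0) and an exact permutation p of 0.133, the lowest that 2 against 4 allow. It was the 1 member of 7 whose LY and Ctrl groups did not overlap, against 12.0% of genes. Prg4 held 14608 and 27759, Comp 11139 and 15232, Chad 4888 and 3455 and Hapln1 7140 and 9493, all within or close to the Ctrl range. In the low genes, Acan held 79.8 and 22.7 and Cnmd 56.8 and 105. No member passed at an unadjusted p under 0.05, against 1.39% of genes, and none was called (0.0%).

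Whether the blocker acted differently with and without angiotensin II was tested as an interaction. For Prg4 the difference between both effects of LY272015 was -2.10 on the log2 scale (SE 0.70), with an adjusted p = 0.295 in edgeR and 0.0649 in DESeq2. It was the 1 member of 7 that passed at an unadjusted p under 0.05, against 13.3% of genes, and it no longer did so without LY 2. None of the members or of all genes was called (0.0%).

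The members also varied between valves of 1 group, and of 21 pairs of members 2 stood out over all valves. Over the 14 valves, log2 normalized counts of Comp and Chad had a Pearson r of 0.82 (permutation p = 0.00025, adjusted over the 21 pairs of 7 members 0.0034) and a Spearman rho of 0.82 (permutation p = 0.0006). After subtraction of the group means r was 0.74, and without the 2 valves farthest from the median it was 0.84. Hapln1 and Prg4 had r of 0.83 (permutation p = 0.00032, adjusted 0.0034) and rho of 0.80 (permutation p = 0.001). Within groups r was 0.75, and 0.68 without the 2 farthest valves. Across the pairs the relation was weak: r was 0.21 for Comp with Hapln1, 0.28 for Comp with Prg4, 0.23 for Chad with Hapln1 and 0.37 for Chad with Prg4. Cnmd ran against Cytl1 with r of -0.52 (permutation p = 0.053, adjusted 0.28), and -0.83 within groups. Within groups, Cnmd also ran against Hapln1 (-0.76) and Prg4 (-0.66), and Cytl1 went with Hapln1 (0.59), although over all valves these r were -0.44, -0.31 and 0.54, with adjusted permutation p of 0.42, 0.61 and 0.28. Valves were permuted freely across the groups, so these p-values also take in differences between groups. No p was computed for the r within groups. All genes of a valve share its library, depth and mix of cells.

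**Figure D4:**
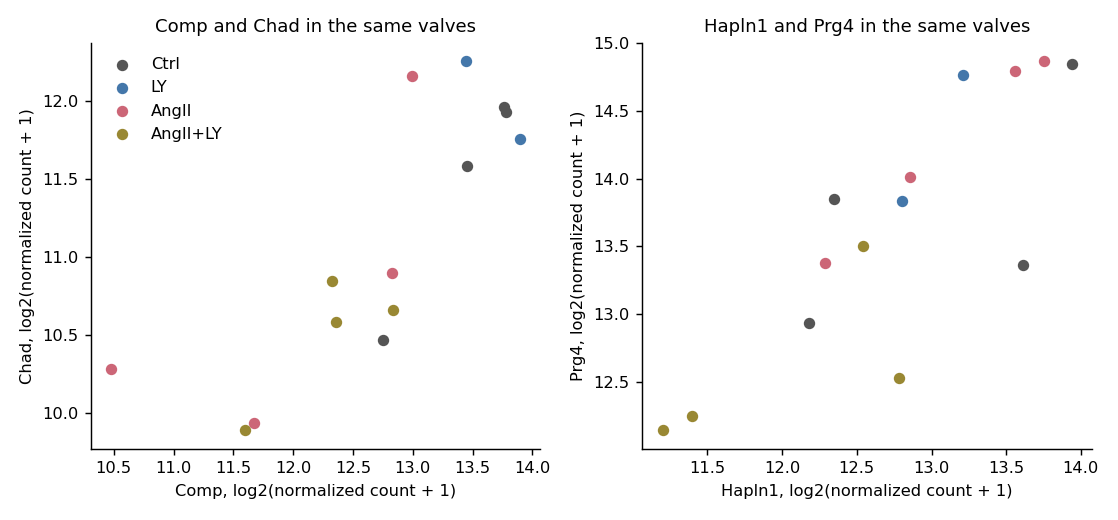
Log2(normalized count + 1) of Chad against Comp (left) and of Prg4 against Hapln1 (right), 1 point per valve, coloured by group. Both pairs climb together over the 14 valves, with r of 0.82 and 0.83, and AngII+LY 3 and 4 lie at the low end of the right panel.

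The genes of the whole table that were most like each member were sought among the 13619 genes that averaged 100 counts or more, by Pearson r over the 14 valves. Comp was closest to Chpf (0.977), Fbln1 (0.968) and Serping1 (0.963), followed by Tmem176b and Tmem9. Serping1 was also among the 5 closest to Chad (0.893), together with Arhgef11 (0.906), C1ra, D630003M21Rik and S1pr2. Hapln1 was closest to Olfml2a and Poglut3 (both 0.936), then Cdh11, Slc43a3 and Acvr1. Prg4 was closest to Tbx20 (0.939), a transcription factor of heart valve cells, then Rin2, Abi3bp, Twsg1 and Pde1a. Cytl1 had weaker partners, led by Ston1 (0.848) and the transcription factor Foxc1 (0.818), then Tle1 and Gm8990. For Acan they were Lypd8l (0.833), E030013I19Rik, Snx24, Mylk (0.799), a smooth muscle kinase, and Ercc5. These r values are the highest of many and describe these valves alone.

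Related genes were counted from lists of cartilage and matrix genes. None of their genes was called by edgeR in any comparison, so the counts are of genes at an unadjusted p under 0.05. Over all genes tested, 13.4% were higher and 11.7% lower at that level in AngII against Ctrl, and 10.1% and 12.4% in AngII+LY against AngII, and several of the list counts lie near these shares. Groups did not overlap for 15.0% and 11.1% of genes. Beyond the 12 genes set by name, those named were picked for the smallest p of their list in AngII against Ctrl. Their distance there comes with the choice, and AngII+LY against AngII uses the same AngII valves, which favours an opposite sign. Among 6 tested cartilage collagens, AngII against Ctrl had 1 higher and 1 lower, with a median log2 fold change of -0.09. Col2a1, the main fibrillar collagen of cartilage, was the higher one, with 5.72 (SE 2.22, adjusted p = 0.134). It rested on AngII 2, which held 467 while the other 3 AngII valves were at 0 and Ctrl held 0, 0.833, 0 and 7.18. Col11a2, a minor fibril collagen, was the lower one, at 2708 on average in Ctrl and 1366 in AngII (-0.98, SE 0.43, adjusted p = 0.17). Col9a3 and Col27a1 were at -0.86 and -0.41. Col11a1 was at 0.64 (SE 1.21), and Col10a1, the collagen of hypertrophic cartilage, had a mean count of 1.5 and was not tested. The valves that received LY272015 all held some Col2a1, with 68.3 and 25.4 in LY and 147, 49.7, 2.88 (2 raw counts) and 170 in AngII+LY. In AngII+LY against AngII all 6 collagens had negative log2 fold changes, that of Col2a1 (-0.35, SE 1.77) through AngII 2, since the other 3 AngII valves were at 0. Of them 1 passed an unadjusted p under 0.05: Col9a1, from 565 to 156 on average (-1.87, SE 0.78, adjusted p = 0.176). Their median was -0.77.

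Among 12 tested regulators of cartilage formation, 2 were higher and 3 lower in AngII. Sox9, the master regulator, averaged 3275 in Ctrl, 2349 in AngII and 1796 in AngII+LY, with -0.48 (SE 0.31, adjusted p = 0.354) and -0.39 (SE 0.31, adjusted p = 0.496) in both comparisons. Its partner Sox5 was at -0.98 in AngII (SE 0.30, adjusted p = 0.0845), where all 4 valves (218 to 518) lay below Ctrl (621 to 997), while Sox6 was at 0.03 (SE 0.26). Trps1, a repressor in growth plate cells, held 2662 to 3709 in AngII, above Ctrl (1254 to 2450) and above AngII+LY (1117 to 1756), with 0.80 (SE 0.24, adjusted p = 0.0773) and -1.17 (SE 0.24, adjusted p = 0.0588). Runx2, which drives hypertrophy and bone formation, held 67.2 to 139 in AngII, 23.3 to 43.4 in Ctrl and 15.4 to 56.5 in AngII+LY, with 1.41 (SE 0.60, adjusted p = 0.168) and -1.47 (SE 0.61, adjusted p = 0.173). Ihh, a signal of maturing cartilage cells, held 352, 58.3, 0 and 8.61 in Ctrl and was at 0 in all other valves. Its log2 fold change in AngII against Ctrl was -9.71 (SE 2.74, adjusted p = 0.0971), and Ctrl 1 held most of its counts. Of 18 other cartilage matrix genes, 1 was higher and 1 lower in AngII, with a median of -0.38, and 4 were lower in AngII+LY than in AngII, with a median of -0.60. Chst11, an enzyme that sulfates chondroitin, was at 1.05 in AngII (SE 0.40, adjusted p = 0.129), and Cilp2, a cartilage intermediate layer protein, at -1.26 (SE 0.56, adjusted p = 0.176). The collagen-binding proteoglycan gene Fmod held 5354 to 13587 in AngII, against 3635 to 5015 with the blocker (-1.12, SE 0.33, adjusted p = 0.0854).

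The 11 tested relatives of the members showed 1 higher and 1 lower in AngII, and 1 higher and 3 lower in AngII+LY against AngII. Vcan encodes versican, the aggrecan relative of heart valves. It held 8763 to 11948 in AngII, against 2611 to 7557 in AngII+LY, without overlap, with 0.98 (SE 0.42, adjusted p = 0.163) against Ctrl and -1.04 (SE 0.42, adjusted p = 0.163) with the blocker. In TPM, versican averaged 23.1 in Ctrl, above the 2.31 of Acan. Vtn, vitronectin, which shares the somatomedin B domain with lubricin, took the opposite course (-1.17, SE 0.47, and 1.74, SE 0.47, adjusted p = 0.0725). The thrombospondins Thbs4 and Thbs3, relatives of Comp, were at -0.39 and -0.55 in AngII, and the proteoglycan gene Bcan at -1.06. Among 9 matrix proteases and inhibitors, 1 was higher and 1 lower in AngII and 3 were lower with the blocker. The aggrecanase genes Adamts5 and Adamts4 were at 0.41 (SE 0.26) and -0.33 (SE 1.34) in AngII, Adamts9 at 1.18 (SE 0.35, adjusted p = 0.08), Mmp3 at -1.0 (SE 0.43) and Htra1 at -0.55 (SE 0.29). Among 8 hyaluronan genes, 2 were higher in AngII: the hyaluronan receptor gene Cd44, from 4969 to 14571 on average (1.55, SE 0.43, adjusted p = 0.0664), and the synthase gene Has1 (1.43, SE 0.50, adjusted p = 0.109). The AngII mean of Cd44 was raised by AngII 4, the shallowest library, at 27242, while the other AngII valves held 8317 to 12871. Cemip2 was at 0.46. Of 7 tendon genes 1 was lower in AngII, Egr1 (-0.60, SE 0.27), and 2 were lower with the blocker. Tnmd, the tendon relative of Cnmd, was at 0 in 10 of 14 valves and highest in AngII+LY 4 with 283.

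**Figure D5:**
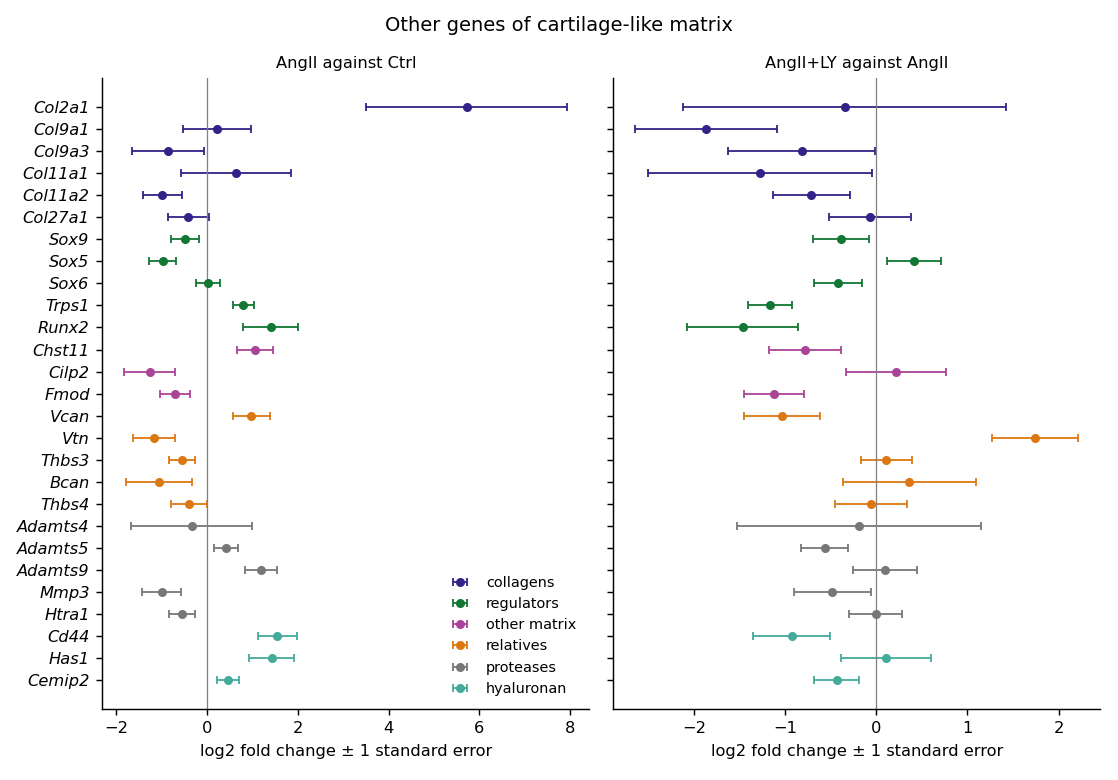
Log2 fold changes, with bars of 1 standard error, of named genes from the lists of cartilage collagens, regulators, other matrix genes, relatives of the members, proteases and hyaluronan genes. The left panel is AngII against Ctrl, in which Col2a1 lies at 5.72 with the widest bar of the genes drawn. The regulator Ihh (-9.71, SE 2.74, in that comparison) is not drawn. The right panel is AngII+LY against AngII, in which Col9a1 lies lowest at -1.87 and Vtn highest at 1.74.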

How the data were processed

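Aortic valve leaflets of 14 mice were sequenced, 1 library per mouse. The authors checked reads with FastQC 0.12.1, trimmed them, used HISAT2 and GRCm39 for alignment and obtained gene counts with featureCounts. They deposited whole-number counts, although the table is named as normalized, so count tests were used. Genes were matched to GENCODE vM39, and 618 genes (0.0361% of counts) stayed unmatched.

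The 19145 genes that averaged 10 counts or more entered edgeR 4.0.16 (R 4.3.3), with its default quasi-likelihood F test, with TMM normalization and 1 fit of 4 groups. Adjusted p-values are Benjamini-Hochberg over all genes, and a call needed both an adjusted p below 0.05 and a log2 fold change beyond 0.5 in either direction. Fits were tested on simulated data. Normalized counts are counts over the TMM effective library size, and TPM used union exon lengths. Permutation tests were 2-sided, exact between groups on log2(normalized count + 1), and with 100000 permutations for correlations. Alternatives included DESeq2 1.42.0, limma 3.58.1, other scalings and filters, GC offsets, a replicate block, a cardiomyocyte score as covariate and leaving out each mouse. The newer form of the quasi-likelihood method was added after the data were seen.

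The members and lists were chosen with earlier results of these data known. All 10 members, 12 list genes set by name and up to 3 more per list with the smallest p in AngII against Ctrl are named, with Col9a2 and Susd5 chosen after their values were seen. Of the 9 marker lists, summed shares of counts are given. Libraries of 20990655 to 73128220 counts limit precision for the low genes, and floors cover counting error only. Where labels do not tell how mice were handled together, p-values measure the spread between these valves.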

Additional observations from a re-analysis of the deposited data

Results flagged for a closer look

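Among 25 groups of 4 valves that were examined, 6 held a value far from the other 3. Chance gives about 1 in 20 groups, but this rate does not apply to the 4 groups in which the other 3 valves were at 0, where any count passes. Acan stood at 827.7 normalized counts in Ctrl 1 and at 79.4 in AngII 4, each with a gap to the nearest valve that is wide for the range of its group (beyond Dixon's critical value). The gap for AngII 4 was small in size, since the other AngII valves held 39.5 to 45.7. Matn1 was at 8.68 in Ctrl 1 and at 0 in the other Ctrl valves. Snorc was at 3.33 in Ctrl 2, 13.6 in AngII 2 and 1.18 in AngII+LY 2, and at 0 in the other valves of these groups. These 4 values rest on 10, 4, 20 and 1 counts.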

How the results depend on the processing

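No member was called by edgeR under any alternative, and DESeq2 called 1 in AngII against Ctrl (Comp) and 1 in AngII+LY against AngII (Prg4). Prg4 in AngII+LY against AngII, Comp in AngII against Ctrl and Prg4, Comp, Chad and Hapln1 in AngII+LY against Ctrl kept their direction throughout. The sign turned in 54 combinations of a log2 fold change and a setting, mostly for members whose log2 fold change was near 0 or whose counts were low. The cause was not tested.

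In AngII against Ctrl, Acan was at 1.22 with limma-voom and at -2.58 to 0.56 when 1 mouse was left out. Chad was at 0.025 with GC offsets and Cnmd at 0.029 with the cardiomyocyte covariate. Cytl1 was at 0.026 with DESeq2 and with RLE size factors, 0.029 on totals without mitochondrial genes, 0.009 at a mean count of at least 100, 0.41 with GC offsets and -0.11 to 0.10 without 1 mouse. Hapln1 was at -0.005 without a filter, -0.48 with GC offsets, -0.16 with the cardiomyocyte covariate and -0.22 to 0.36 without 1 mouse. In AngII+LY against AngII, Acan was at -2.20 with limma-voom, -0.085 with GC offsets and -1.49 to 0.77 without 1 mouse, and Comp at -0.21 with GC offsets, -0.069 with the covariate and -0.26 to 0.38 without 1 mouse. Without 1 mouse, Chad ranged from -0.80 to 0.11, Cnmd from -1.071 to 1.001 and Cytl1 from -0.19 to 0.075. Cnmd was at 0.47 with limma-voom and 0.51 with the newer quasi-likelihood form, and Cytl1 at 0.094 with the covariate. In AngII+LY against Ctrl, Cytl1 was at 0.18 with GC offsets, 0.027 with the covariate and -0.20 to 0.070 without 1 mouse, and Acan at -3.67 to 0.91. In LY against Ctrl, leaving out 1 mouse gave -0.099 to 0.94 for Prg4, -0.047 to 0.40 for Comp and -0.42 to 0.16 for Hapln1.

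Members at an unadjusted p under 0.05 numbered 0 to 2 in AngII against Ctrl, 1 to 2 in AngII+LY against AngII, 1 to 4 in AngII+LY against Ctrl, 0 to 1 in LY against Ctrl and 0 to 1 for the interaction when 1 mouse was left out. AngII against Ctrl had 0 without AngII 3 and 2 without Ctrl 4 or AngII 2. With an LY mouse left out, the lone LY valve was assumed to vary like the other groups. The cardiomyocyte covariate left 0 in AngII+LY against AngII and 1 in AngII+LY against Ctrl. GC offsets left 2 in AngII+LY against Ctrl and gave 3 for the interaction. In LY against Ctrl, DESeq2, a fit of these groups alone, GC offsets and the covariate each gave 1 (Cytl1).

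Deviations of mice with the same number from their group means were barely correlated (r from -0.128 to 0.0897 over genes), so the main fit does not pair them. These correlations cannot tell whether such mice were handled together. With the replicate block, members at an unadjusted p under 0.05 in AngII+LY against AngII numbered 1, with or without GC offsets, and 2 in AngII+LY against Ctrl with GC offsets. The block gave 0.32 (Acan) and -0.14 (Hapln1) in AngII against Ctrl, -0.79 (Acan) in AngII+LY against AngII and -0.064 (Comp) in LY against Ctrl. Block and GC offsets together gave 1.10 (Acan), 0.40 (Cytl1) and -0.69 (Hapln1) in AngII against Ctrl, -1.40 (Acan) and -0.14 (Comp) in AngII+LY against AngII and 0.15 (Cytl1) in AngII+LY against Ctrl.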

Other observations

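The valves with most transcripts of the low cartilage genes were not the same for each gene. AngII 2 held 20 of the 25 counts of Snorc and all Col2a1 of its group (467 normalized counts), with 10.9 of Col9a2. Col2a1 was also above 0 in each of the 6 valves that received LY272015 (2.88 to 170) and at 0 to 7.18 in the remaining valves. The 2.88 of AngII+LY 3 rests on 2 counts and lies below the 7.18 of Ctrl 4, and AngII 2 received no LY272015. In LY against Ctrl the unadjusted p for Col2a1 was 0.0718 in edgeR, and the 6 valves together were not tested. Col9a2, a collagen that accompanies Col2a1 in cartilage, was highest in AngII 4 with 116, a valve in which Col2a1 was at 0. Ctrl 1 held the most Acan (828), the most Ihh (352) and 10 of 31 counts of Matn1, while its Col2a1 was at 0. Susd5, a gene of a hyaluronan-binding protein, was named after its values were seen, so its match with Acan is no independent result. It was at 11794 in the same valve, at 1292 in Ctrl 2 and at 1758 in AngII+LY 2, the 3 valves with the most Acan. The other valves held 0 to 1071 of Susd5. Among them the match ended, with Susd5 at 1071 and Acan at 52.7 in AngII+LY 4, but 3.07 and 79.8 in LY 1.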
